A study of Mus musculus with 8 samples.

Results

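The 44 genes described here code for the proteins that license and fire origins of replication, copy DNA, supply nucleotides and carry mouse cells from G1 into S phase. They were taken as a fixed list of symbols, from Mcm2 to E2f1, and matched to Entrez gene identifiers, which found all 44 among the 23403 genes of the RNA-seq count table. The cells were Hepa-1c1c7 (Hepa-1), an established mouse hepatoma line that divides in culture. RNA-seq covered 2 libraries of cells exposed for 90 minutes to 25 µM Cr(VI), given as CrK2O4 in the growth medium, and 2 libraries of control cells without chromium. The labels do not say which exposure regimen the control RNA libraries belong to, and nothing says that the libraries of a group came from separate cultures, so the p-values measure only the spread between these libraries. FAIRE-seq, in which crosslinked chromatin is extracted with phenol and the DNA left unbound by histones is sequenced, gave a list of peaks opened by the 90-minute exposure to 25 µM Cr(VI) and a list of peaks opened by 0.5 µM Cr(VI) over 20 passages, each from 1 treated library against 1 control library. RNA of the long-term exposure was not analysed here.

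In G1 the origin recognition complex, with CDC6 and CDT1, loads the MCM ring onto DNA as an inactive helicase. CDC45 and GINS then join the ring when cyclin-dependent kinases become active, DNA polymerase alpha-primase lays down primers, and the PCNA clamp, placed by the RFC loader, holds the polymerases that extend them. Cyclin D1, and cyclin E together with CDK2, release E2F from the retinoblastoma protein. E2F in turn drives transcription of many of the genes in this list, so their RNA is highest around S phase in dividing cells.

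Total counts ran from 32319676 to 37696116 reads on genes per library. Levels are given as CPM, read counts scaled to a common library total with TMM factors, with the treated replicates first and the controls after them. The control libraries lay close to each other, with 4 genes more than 2-fold apart over the genes compared, whereas 875 genes were more than 2-fold apart between the treated libraries. The summed levels of the marker lists that follow are scaled by total counts alone, without TMM factors. Of the hepatocyte and hepatoma markers, 10 of 12 were tested and 4 were called higher in treated cells (Alb, Ttr, Apob and Fgb). The summed level of the 12 markers was 6154 and 5946 CPM in treated and 3217 and 3320 CPM in control libraries. Summed blood cell markers ranged from 12.0 to 29.2 CPM with Cd3e at 0 in each library and none of 3 tested called. Summed endothelial and fibroblast markers ranged from 1349 to 1595 CPM with Cdh5 at 0 and 1 of 5 tested called, Pecam1, which was higher in treated cells. The part of these marker levels in the results on replication genes was not tested.

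All 44 genes passed the filter on low counts and were tested together with the other genes of the table, 13619 in all, by edgeR's quasi-likelihood test with Benjamini-Hochberg adjustment. Only Orc2 passed an adjusted p of 0.05, as lower in treated cells, against a background of 2.85% of all genes called lower and 4.63% called in either direction. A further set of replication genes lay just outside that threshold. At an adjusted p under 0.10, 10 of the 44 genes were lower and 0 were higher, where 8.5% of all genes were lower and 1054 of 13619 were higher. At an unadjusted p under 0.05, 15 were lower and 2 were higher, beside 15.1% and 15.6% of all genes. DESeq2 called 5 of the 44, all lower (Orc2, Rfc5, Pola1, Prim2 and Tk1), beside 15.2% of all genes in either direction.

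By order of the libraries alone, 19 genes had both treated libraries below both controls, where the background was 34%, and 7 had both above, where it was 32.2%. In the other 18 genes the groups overlapped. The median log2 fold change over the list was -0.08, beside 0.00 over all genes tested, and single genes ran from -1.16 to 0.53. By role, 5 of the 7 genes of polymerases, primase and flap nuclease, 4 of the 6 of the clamp and its loader and 3 of the 6 G1/S regulators had both treated libraries below both controls, and 0 of the 6 MCM ring genes did, with no test between roles. The median of the list also differed between the treated libraries, at -0.23 in replicate 1 and 0.03 in replicate 2 relative to the controls.

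**Figure D1:**
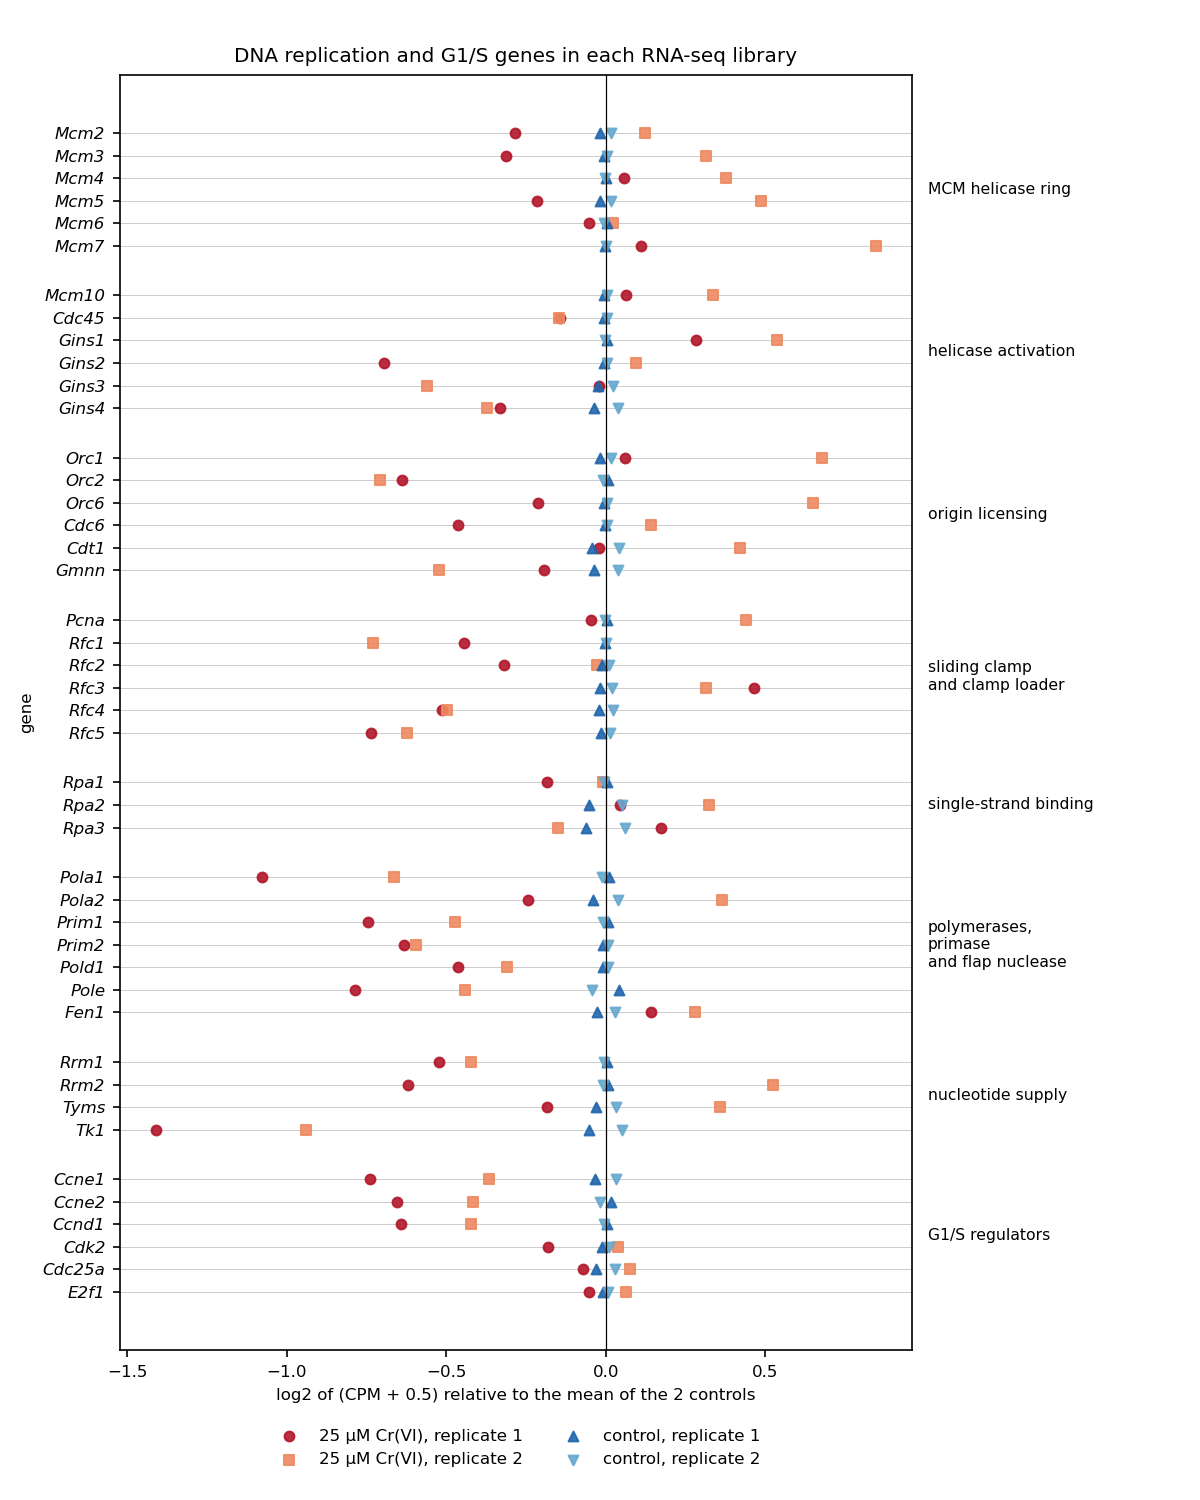
Level of each of the 44 genes in each of the 4 RNA-seq libraries, as log2 of (CPM + 0.5) relative to the mean of the 2 controls, with genes on the vertical axis grouped by role. The controls lie near 0 in each row, while the treated libraries lie on opposite sides of 0 for genes such as Rrm2 and Orc6 and on the same side for Tk1, Pola1 and Orc2.

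Orc2 codes for a core subunit of the origin recognition complex. Its level was 77.9 and 74.2 CPM in the treated libraries and 122 and 121 CPM in the controls. The treated libraries were close to each other, and the groups did not overlap. Orc2 fell to 62.6% of the control level, a log2 fold change of -0.68 with a standard error (SE) of 0.10 and an adjusted p of 0.0461 in edgeR's quasi-likelihood test. In RNA from a whole culture, fewer cells in S phase and less RNA per cell cannot be told apart. The call was close to the threshold and was lost when either control library was left out and when libraries were scaled by total counts alone. The gene (Entrez 18393) lies on the minus strand at chr1:58462771-58505113 of GRCm38.p6. The bases before its annotated start, shown because it was the gene that passed the test, held none of the 8-letter E2F sequences described further on, and a noncoding RNA model on the opposite strand begins among them. They are given from RefSeq, build GRCm38.p6, minus strand, chr1:58505114-58505359.
Orc2: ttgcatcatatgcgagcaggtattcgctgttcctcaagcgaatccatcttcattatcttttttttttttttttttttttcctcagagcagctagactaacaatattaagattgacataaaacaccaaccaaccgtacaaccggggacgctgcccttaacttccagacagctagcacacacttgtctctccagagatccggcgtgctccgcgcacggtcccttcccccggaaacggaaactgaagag

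None of the other licensing genes passed the test. Orc1 had 19.2 and 29.7 CPM in treated and 18.2 and 18.6 CPM in control libraries, and it was the gene with the lowest level per kilobase of exon in the whole list, at 2.26 CPM per kilobase in controls. Orc6, another subunit, had treated libraries on both sides of the controls, at 83.5 and 152 CPM against 96.5 and 97.0 CPM. The fitted values of Orc1 and Orc6 were 0.41 (SE 0.25) and 0.28 (SE 0.31) on the log2 scale. Cdt1, which brings the MCM ring to the origin, was the member of this role with the highest mean level, at 105 and 142 CPM in treated and 103 and 109 CPM in control libraries. Its log2 fold change was 0.22 with an edgeR adjusted p of 0.460, and the groups overlapped. Cdc6, which loads the ring together with CDT1, had a log2 fold change of -0.13 (SE 0.23). Gmnn codes for geminin, the inhibitor of CDT1, and was lower in both treated libraries, at 38.3 and 30.4 CPM against 42.7 and 45.1 CPM. Its log2 fold change was -0.35 with an edgeR adjusted p of 0.214.

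None of the 6 genes of the MCM helicase ring passed the test, and their median log2 fold change was 0.11. Mcm7 had both the smallest p and the highest mean CPM of the ring, with 273 and 456 CPM in treated and 253 and 253 CPM in control libraries. Both treated libraries were above the controls, treated replicate 1 only slightly. The log2 fold change was 0.53 with a 95% interval from -0.20 to 1.26 and an edgeR adjusted p of 0.262. Mcm4 was the other ring gene with both treated libraries above both controls, at 0.23 (SE 0.15) on the log2 scale. For Mcm2, Mcm3, Mcm5 and Mcm6 the groups overlapped, and their log2 fold changes ran from -0.07 for Mcm2 to 0.18 for Mcm5. Treated replicate 1 was below the controls and treated replicate 2 above them for Mcm2, Mcm3, Mcm5 and Mcm6. The intervals of Mcm3 and Mcm5 reached from -0.61 to 0.68 and from -0.51 to 0.87, so a moderate difference in either direction could not be detected with these libraries.

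The factors that turn the loaded ring into an active helicase were split. Among the GINS subunits, Gins4 had 38.1 and 37.0 CPM in treated and 46.8 and 49.3 CPM in control libraries, a log2 fold change of -0.36 with an edgeR adjusted p of 0.129. Gins1 stood on the other side, with 33.3 and 39.7 CPM in treated and 27.3 and 27.2 CPM in control libraries. Its log2 fold change was 0.42 with an edgeR adjusted p of 0.143, and 24.5% of its exon length is shared with the gene model Gm20550 on the same strand, so its reads could belong to either. Gins2 had the highest mean level of this role, and its treated libraries lay far apart, at 43.7 and 76.0 CPM against 70.8 and 71.3 CPM. It shares 11.4% of its exon length with Gse1 on the opposite strand, which had a log2 fold change of 0.72 (SE 0.12, edgeR adjusted p 0.0526). Gins3 was the exception of the list in being more than 0.5 lower, on the log2 scale, in treated replicate 2 than in treated replicate 1, at 18.4 and 12.5 CPM against 18.4 and 19.0 CPM. The log2 fold changes of Gins2 and Gins3 were -0.25 (SE 0.28) and -0.27 (SE 0.23). Cdc45, the helicase cofactor, had both treated libraries just below both controls, at -0.15 (SE 0.11). Mcm10, which acts in helicase activation, had both treated libraries above both controls, at 0.21 (SE 0.14).

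Genes of the polymerases and primase held the lowest median of the 8 roles, at -0.61 on the log2 scale, and 5 of 7 had both treated libraries below both controls. None passed an adjusted p of 0.05, and 3 passed 0.10. Pola1, the catalytic subunit of DNA polymerase alpha, had 30.1 and 40.2 CPM in treated and 64.6 and 63.6 CPM in control libraries. The groups were well apart, at 54.9% of the control level, a log2 fold change of -0.87 (SE 0.18) with an edgeR adjusted p of 0.0694. The primase subunits lay close to it. Prim2 had 27.3 and 28.1 CPM in treated and 42.4 and 42.9 CPM in control libraries, with an edgeR adjusted p of 0.0587. Prim1 had 37.7 and 45.6 CPM in treated and 63.8 and 63.1 CPM in control libraries, with an edgeR adjusted p of 0.0834. Their log2 fold changes were -0.62 (SE 0.11) and -0.61 (SE 0.14).

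Pola2, the accessory subunit of the same enzyme and the gene of this role with the highest mean CPM, did not have this pattern. It had 114 and 174 CPM in treated and 131 and 139 CPM in control libraries. Treated replicate 1 was below the controls and replicate 2 above them, and the log2 fold change was 0.09 with an edgeR adjusted p of 0.809. The catalytic subunits of the replicative polymerases were both lower, Pole at -0.61 (SE 0.17) and Pold1 at -0.39 (SE 0.11), with edgeR adjusted p of 0.103 and 0.114. Fen1, the flap nuclease that trims Okazaki fragments, was above the controls in both treated libraries, at 0.21 (SE 0.11).

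The clamp loader subunits were also split. Rfc5 had 34.9 and 37.9 CPM in treated and 58.0 and 59.2 CPM in control libraries. It stood at 62.2% of the control level with no overlap, a log2 fold change of -0.69 (SE 0.11) and an edgeR adjusted p of 0.0533. Rfc1, the large subunit, had 66.2 and 54.2 CPM in treated and 90.1 and 90.2 CPM in control libraries, with an edgeR adjusted p of 0.0869. Rfc4 had 28.0 and 28.3 CPM in treated and 39.6 and 40.9 CPM in control libraries, with an edgeR adjusted p of 0.0772. The log2 fold changes of Rfc1 and Rfc4 were -0.58 (SE 0.14) and -0.51 (SE 0.11). Rfc4 shares 13.2% of its exon length with Eif4a2 on the opposite strand, a gene that was higher in treated cells at 0.98 (SE 0.16, edgeR adjusted p 0.0508), and whether the counting used strand is not given in the sources used here.

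Rfc3 differed from the other loader subunits, with 107 and 96.6 CPM in treated and 76.6 and 78.6 CPM in control libraries. Both treated libraries were above both controls, with a log2 fold change of 0.39 (95% interval 0.10 to 0.69) and an edgeR adjusted p of 0.110. Rfc2 had a log2 fold change of -0.17 (SE 0.14). Pcna, the clamp itself and the member of this role with the highest mean CPM, had 249.6 and 350 CPM in treated and 258 and 257 CPM in control libraries. The treated libraries lay on both sides of the controls, with a log2 fold change of 0.22 and an edgeR adjusted p of 0.497.

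**Figure D2:**
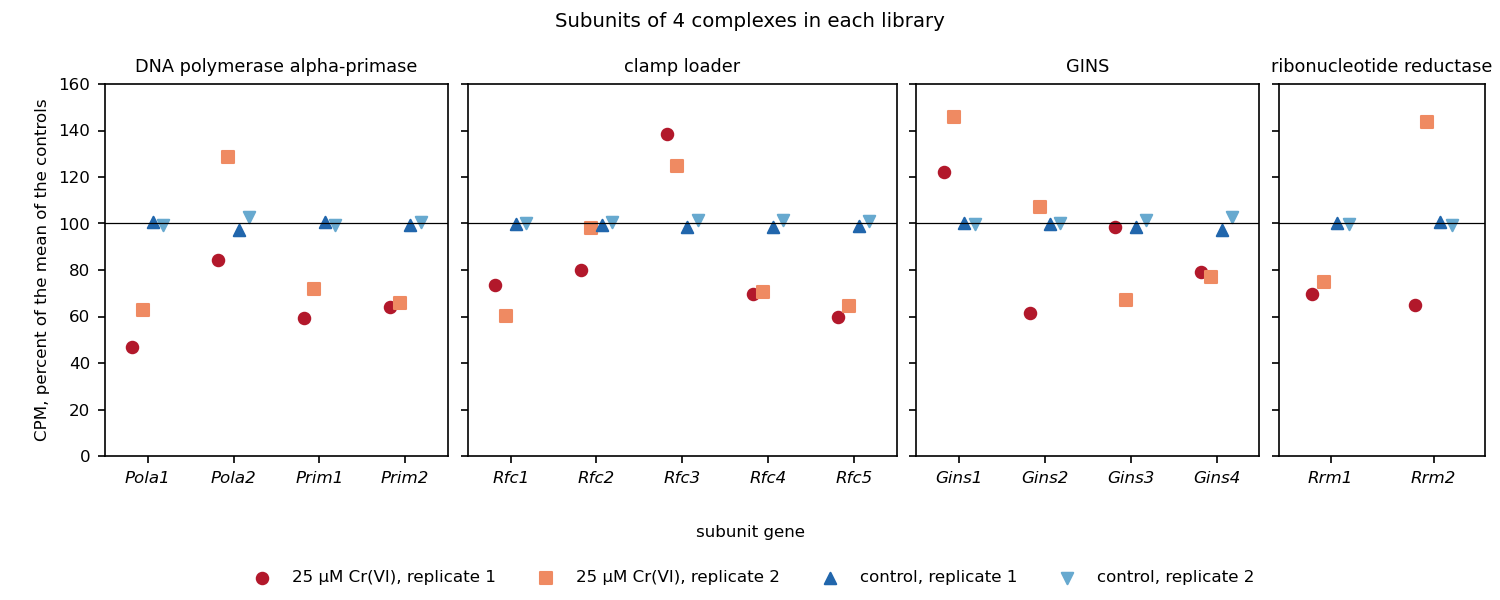
CPM of the subunit genes of 4 complexes in each library, as percent of the mean of the 2 controls on a linear axis from 0, with 1 point per library. Within DNA polymerase alpha-primase, Pola1, Prim1 and Prim2 lie below 100 in both treated libraries and Pola2 does not. Within the clamp loader, Rfc3 lies above 100, whereas Rfc1, Rfc4 and Rfc5 lie below it.

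RPA, the single-strand DNA binding complex, was not detectably different. Rpa1 had the highest mean level of the 3 subunits, at 167 and 189.1 CPM in treated and 191 and 189.7 CPM in control libraries, a log2 fold change of -0.09 with an edgeR adjusted p of 0.623. Rpa2 had 41.6 and 50.5 CPM in treated and 38.8 and 41.8 CPM in control libraries, a log2 fold change of 0.19 with an edgeR adjusted p of 0.425. The intervals ran from -0.41 to 0.23 for Rpa1 and from -0.20 to 0.59 for Rpa2. Rpa3 had a log2 fold change of 0.02 (SE 0.17).

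The largest fitted difference of the list was that of a nucleotide supply gene, Tk1, which codes for the thymidine kinase of S phase cells. Tk1 had 59.8 and 83.0 CPM in treated and 154 and 166 CPM in control libraries. The groups were far apart, at 44.7% of the control level, and the treated libraries differed from each other by 0.47 on the log2 scale. The log2 fold change was -1.16 (SE 0.19) with an edgeR adjusted p of 0.0527, just outside the threshold. Tk1 shares 18.6% of its exon length with Afmid on the opposite strand, which had a log2 fold change of 0.06 (SE 0.16) and at most 18.5 CPM.

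Both subunits of ribonucleotide reductase, the enzyme that makes deoxyribonucleotides, were well expressed, and their patterns were unlike. Rrm1, the large subunit and the gene of this role with the highest mean CPM, had 201 and 216 CPM in treated and 290.4 and 288 CPM in control libraries. Its treated libraries were alike and below the controls, with a log2 fold change of -0.47 (SE 0.12) and an edgeR adjusted p of 0.0895. Rrm2, the subunit whose level follows S phase, had 139.8 and 309.6 CPM in treated and 217 and 214 CPM in control libraries. One treated library was well below and the other well above the controls, and the log2 fold change was 0.06 (SE 0.40), the widest error of the list. Tyms, which makes thymidylate, had 64.3 and 93.9 CPM in treated and 71.5 and 74.8 CPM in control libraries, and its log2 fold change was 0.11 (SE 0.21).

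Among the regulators of the G1/S step, the cyclins and their partners were apart from each other. Ccnd1 (cyclin D1) was the gene with the highest level per kilobase of exon in controls, 348 CPM per kilobase, ahead of Pcna at 205, Mcm3 at 99.0, Rrm2 at 98.8 and Tk1 at 91.5. Between Mcm3 and Rrm2 the order of the levels is within the spread of the controls. Ccnd1 had 839.8 and 977 CPM in treated and 1316 and 1306 CPM in control libraries. This was 69.3% of the control level with no overlap, a log2 fold change of -0.53 (SE 0.17) and an edgeR adjusted p of 0.134.

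The E-type cyclins, which activate CDK2 at the entry into S phase, were at a like fraction of the controls. Ccne2 had 28.5 and 33.7 CPM in treated and 45.7 and 44.7 CPM in control libraries, a log2 fold change of -0.54 (SE 0.14) with an edgeR adjusted p of 0.0943. Ccne1 had 32.5 and 42.4 CPM in treated and 53.4 and 56.0 CPM in control libraries, a log2 fold change of -0.55 (SE 0.17) with an edgeR adjusted p of 0.125. For Ccne2, 52.3% of the exon length is shared with Ints8 on the opposite strand, which had a log2 fold change of -0.31 (SE 0.15), and for Ccnd1, 21.7% is shared with LTO1, which had one of -0.09 (SE 0.13). Cdk2, the kinase, Cdc25a, the phosphatase that activates it, and E2f1, the transcription factor, had overlapping groups, with log2 fold changes of -0.07 (SE 0.12), 0.00 (SE 0.12) and 0.01 (SE 0.11). Their 95% intervals lay between -0.40 and 0.33, which bounds the difference that these libraries leave possible.

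**Figure D3:**
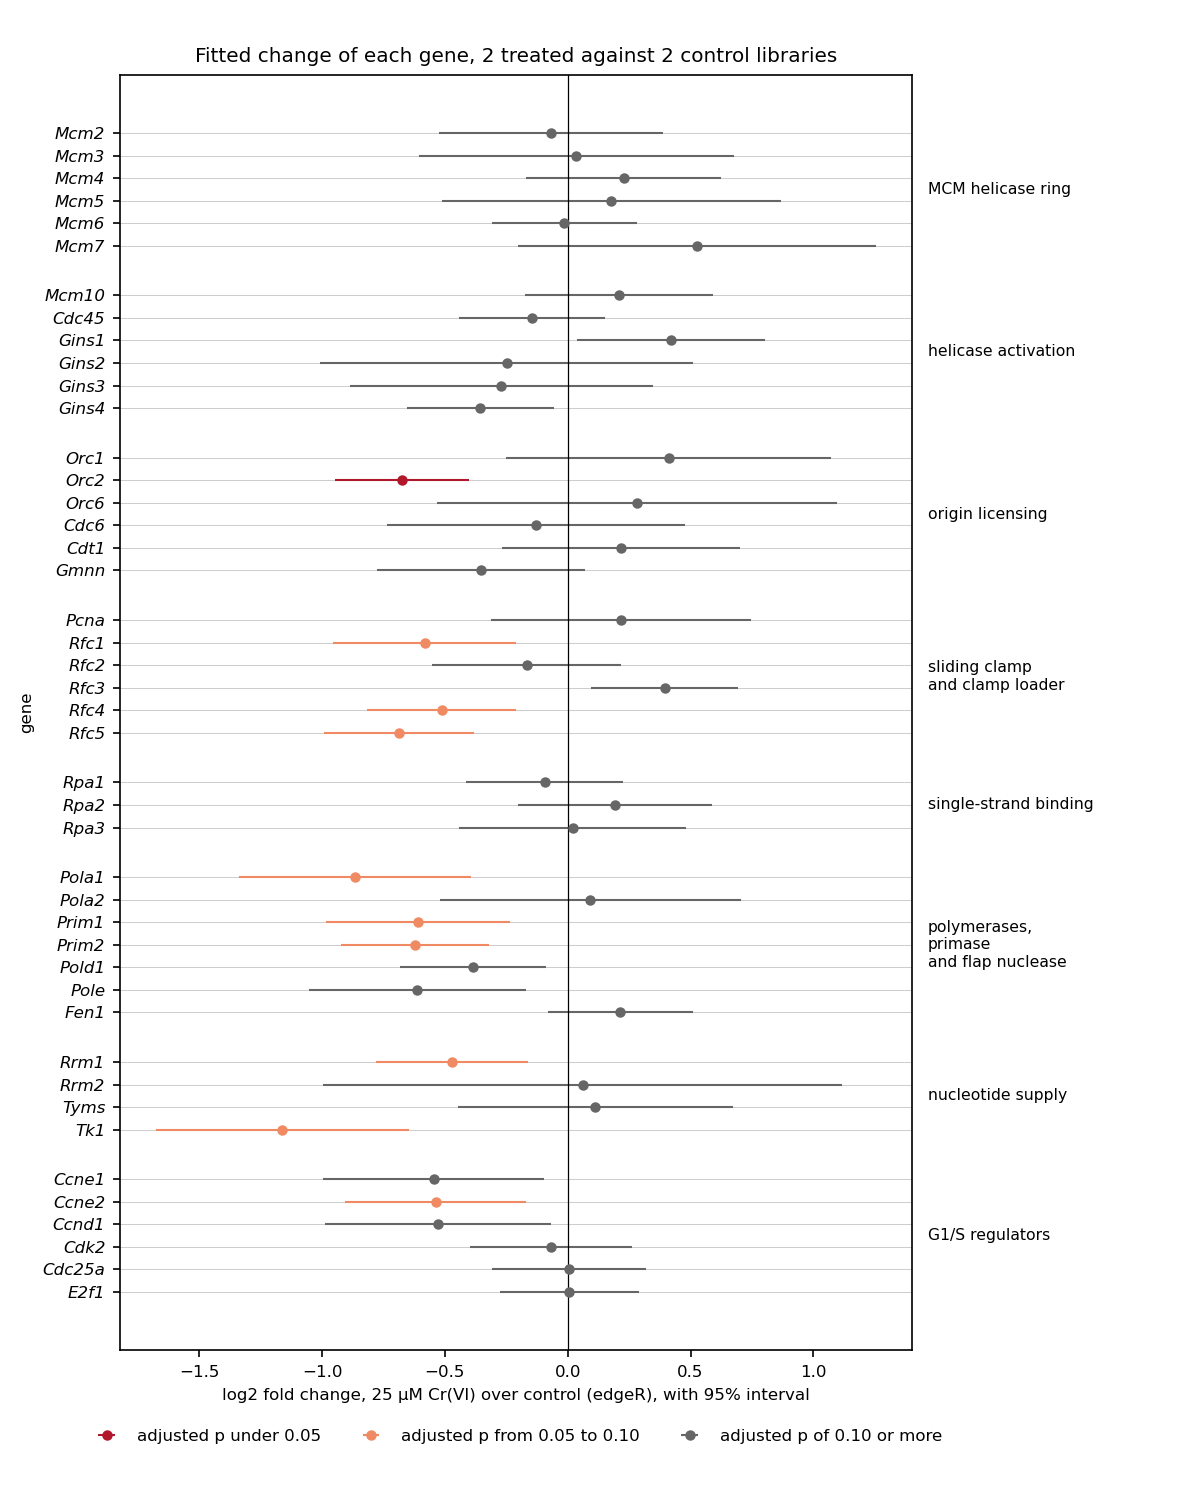
Fitted log2 fold change of each of the 44 genes, 2 treated against 2 control libraries, with the 95% interval of edgeR's fit, grouped by role. Orc2 is the gene past an adjusted p of 0.05, and 9 others (Tk1, Pola1, Prim1, Prim2, Rfc1, Rfc4, Rfc5, Rrm1 and Ccne2) lie between 0.05 and 0.10, all to the left of 0.

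The treated libraries were not alike in these genes. Treated replicate 2 was more than 0.5 higher than treated replicate 1, on the log2 scale, in 10 of the 44 genes and more than 0.5 lower in 1, beside 14.6% and 17.9% of all genes tested. The 10 genes were Rrm2, Orc6, Gins2, Mcm7, Mcm5, Mcm3, Orc1, Pola2, Cdc6 and Tyms. Taking any difference, 36 of the 44 were higher in replicate 2, where 49.4% of all genes were. The control libraries differed little in the list, with a median absolute difference of 0.02 on the log2 scale against 0.29 between the treated libraries. Over all genes tested these medians were 0.06 and 0.34, so the size of the treated difference was not particular to the list. Scaled by total counts alone, where the median of all genes was -0.19 between the treated libraries, 26 of 44 were higher in replicate 2, 5 of them by more than 0.5, and 3 were lower by more than 0.5.

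Genes of mitosis and G2/M, the phases that follow S, had the opposite order between the treated libraries. None of these 31 genes was more than 0.5 higher in treated replicate 2 and 18 were more than 0.5 lower, with a median difference of -0.56. Plk1, the mitotic kinase, had 104 and 53.6 CPM in treated and 129.8 and 132 CPM in control libraries. Cenpf, a kinetochore protein, had 115 and 47.1 CPM in treated and 84.8 and 80.7 CPM in control libraries. Cdkn1a, the CDK inhibitor p21 that p53 induces, had 438 and 1751 CPM in treated and 361 and 364 CPM in control libraries, so it too separated the treated libraries. These 3 genes were chosen after their values were seen. With 1 library on each side, the difference between the treated libraries has no replicate check, and no reason for it was tested.

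**Figure D4:**
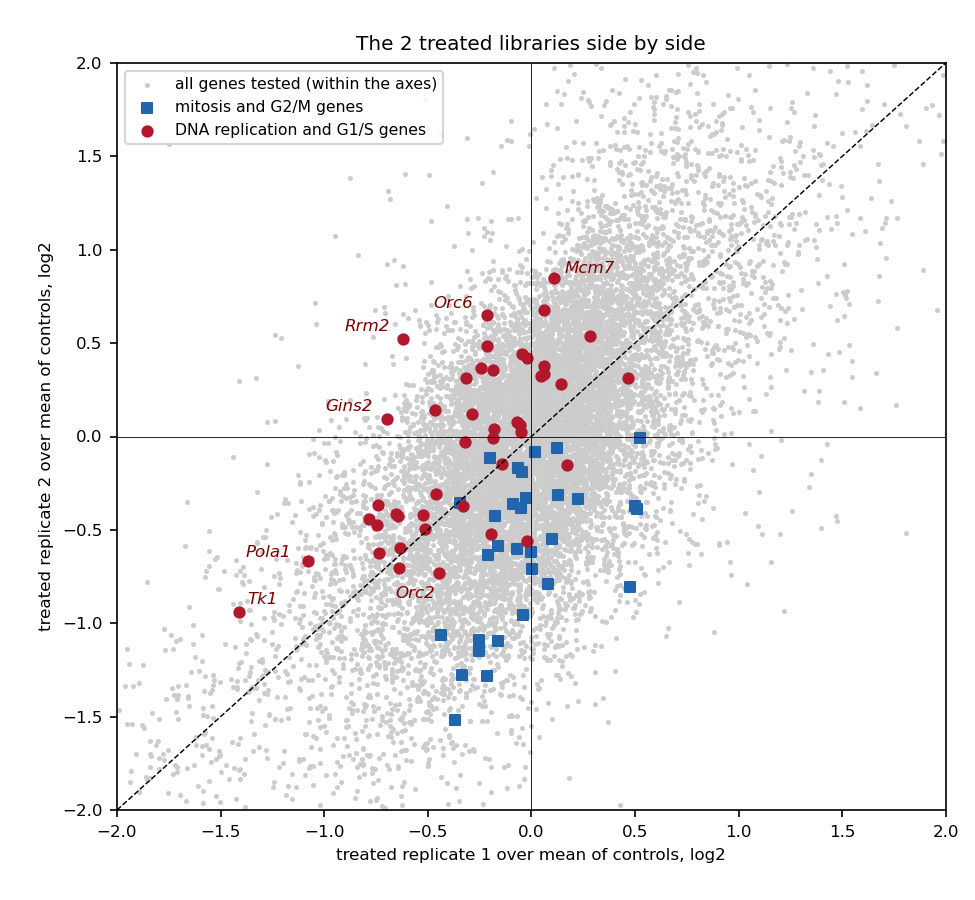
Each treated library over the mean of the controls, on log2 axes, for the 44 DNA replication and G1/S genes, the 31 mitosis and G2/M genes and all genes tested that lie within the axes, with the dashed line marking equal values. Replication genes lie mostly above the line, 36 of 44, and mitosis genes below it, 30 of 31.

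Each treated library was also set against the controls alone. With replicate 1 alone, 33 of the 44 genes were below both controls and 8 above, where 46.3% and 46.7% of all genes were. With replicate 2 alone, 21 were below both controls and 23 above, where 49.8% and 45.7% of all genes were. With TMM scaling, the list as a whole was therefore lower in replicate 1 but evenly split in replicate 2. The TMM factor was 0.897 for treated replicate 2 and 1.03 for treated replicate 1, against 1.04 for each control. These counts for 1 treated library were not repeated under other scalings, so the split in replicate 2 is known for this scaling alone. The 19 genes below both controls in both treated libraries were Orc2, Tk1, Pola1, Prim1, Prim2, Pole, Pold1, Rfc1, Rfc2, Rfc4, Rfc5, Rrm1, Gins4, Gmnn, Cdc45, Rpa1, Ccnd1, Ccne1 and Ccne2.

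The 5 other lists held other replication factors, nucleotide supply genes, G1/S regulators, S-phase checkpoint genes, and mitosis and G2/M genes. Together they gave 1 call among 135 genes tested of 141 listed, where 4.63% of all genes were called. E2f2, an activator E2F, had 2.87 and 2.35 CPM in treated and 6.47 and 7.14 CPM in control libraries. It fell by 1.38 on the log2 scale (SE 0.22), with an edgeR adjusted p of 0.0489, at a low level. Among 43 other replication factors none passed an adjusted p of 0.05, and the median was -0.12. At 0.10, 4 of the 43 were lower (Cdc7, Clspn, Dna2 and Dnmt1), beside 8.5% of all genes. Dnmt1, the maintenance DNA methyltransferase, had 213 and 228 CPM in treated and 338 and 338 CPM in control libraries, with an edgeR adjusted p of 0.0623.

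Of 16 other nucleotide supply genes none passed 0.05, and at 0.10 Cmpk1 was lower and Tymp, the phosphorylase that breaks down thymidine, was higher. The medians were -0.08 for that list, -0.15 for 30 other G1/S regulators, -0.30 for 15 genes of the S-phase checkpoint and -0.28 for the mitosis genes. No checkpoint or mitosis gene passed 0.05, and Atm was the 1 checkpoint gene lower at 0.10. Over all genes tested, 8.5% were lower and 1054 of 13619 were higher at 0.10. The G1 inhibitors Cdkn1c, Cdkn2a and Cdkn2b had 0 counts in each library, which allows up to 3 counts in a library by counting error alone.

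Sequences near the starts of these genes were compared with those of the 27025 genes in a promoter table from RefSeq. Windows ran from 250 bases before to 50 bases after the start of the transcripts in that table. The comparison was not limited to the genes tested for RNA. Windows were found for 34 of the 44 genes (37 windows), and the other 10 are Mcm4, Gins1, Gins2, Gins4, Gmnn, Rfc2, Prim2, Pole, Ccne2 and Ccnd1. E2F sequences were searched as TTTCCCGC, TTTCGCGC, TTTGCCGC or TTTGGCGC on either strand. They occurred in 13 of 37 windows (35.1%), beside 2.26% of the 32851 windows of all genes in the promoter table. CCAAT on either strand was in 67.6% against 37.4%, the GC box GGGCGG on either strand in 70.3% against 35.7%, and the AP-1 sequences TGACTCA and TGAGTCA, which are each other's reverse complement, in 0 of 37 against 5.20%. A match describes letters and not a bound site, and genes of this kind are known for regulation by E2F.

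The genes with an E2F sequence were Mcm3, Mcm5, Mcm6, Mcm7, Orc1, Cdc6, Cdt1, Gins3, Rfc3, Pola1, Pold1, Cdk2 and Cdc25a. Their median log2 fold change was 0.00, with 6 of 13 negative, and that of the 21 genes whose windows lacked one was -0.07, with 11 negative. Tk1, Prim1, Rfc1, Rfc4, Rfc5, Rrm1, Ccne1, Orc2 and E2f1 were among those without one in this window. Genes with an E2F sequence thus lay both below and above 0, from Pola1 at -0.87 to Mcm7 at 0.53. The sites of the 6 such genes with the smallest p are shown to let this contrast be read beside the letters. Each is 30 bases 5′ to 3′ on the gene's strand from RefSeq, build GRCm38.p6, with the E2F sequence in capitals.
Pola1, chrX:93632275-93632304, minus strand: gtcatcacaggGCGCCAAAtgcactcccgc
Rfc3, chr5:151651200-151651229, minus strand: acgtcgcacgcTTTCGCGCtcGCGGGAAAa
Pold1, chr7:44548766-44548795, minus strand: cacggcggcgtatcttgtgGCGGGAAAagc
Mcm7, upstream site, chr5:138172030-138172059, minus strand: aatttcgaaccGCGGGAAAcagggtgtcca
Mcm7, site after the start, chr5:138171849-138171878, minus strand: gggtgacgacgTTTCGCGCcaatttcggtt
Orc1, chr4:108579416-108579445, plus strand: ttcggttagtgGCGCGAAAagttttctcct
Cdt1, chr8:122568035-122568064, plus strand: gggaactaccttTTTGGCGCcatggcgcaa

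Pola1 and Mcm7, the lowest and the highest of the 13 genes by log2 fold change, both held a site before the start of their curated transcript, whose first base was at -138 in Pola1 and at -165 in Mcm7, counted in bases from that start. RefSeq also holds predicted transcripts of these genes that begin 232 bases further upstream in Pola1 and 228 in Mcm7, so that both sites lie inside the annotated gene. The window of Orc1 likewise belongs to a curated start 3749 bases inside the gene, and for 6 of the 13 genes a predicted start lies upstream of the start used. Rfc3 held 2 sites on opposite strands that flank its start. In Pold1 and Cdt1 the site lay just after the start.

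**Figure D5:**
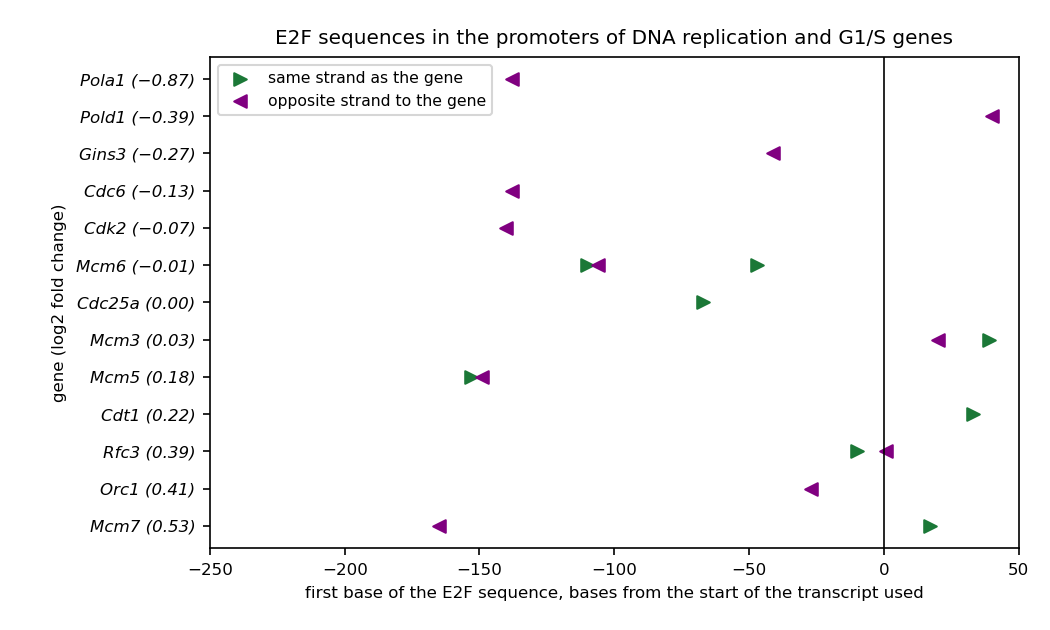
Position of the first base of each E2F sequence, in bases from the start of the transcript used (the line at 0), for the 13 genes with one, ordered by log2 fold change, with triangles pointing right for the gene's strand and left for the opposite strand. Sites lie on both sides of the start, from -165 in Mcm7 to 40 in Pold1.

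In the peak list of the 25 µM exposure, 0 of the 44 genes had a peak centred within 1000 bp of an annotated start, where 1.53% of the 13562 tested genes with coordinates had one. In the 0.5 µM list 1 gene, Rpa2, had a peak there, where 1.38% of those genes did, and nothing is read from either count. That peak lay at chr4:132767871-132768450 of GRCm38 (mm10), 580 bp wide, with its centre 199.5 bp from the start and a score of 60.44, on the authors' scale of -log10 p multiplied by 10. It reached from the promoter into an exon, and 31.7% of it is masked as repeat. RNA of the cells in which this peak was found was not analysed here, and Rpa2 was not detectably different after 25 µM (log2 fold change 0.19, SE 0.15). The stretch of the peak directly before the start is shown because this was the gene of the list with a promoter peak, from RefSeq, build GRCm38.p6, plus strand, chr4:132768110-132768359.
Rpa2: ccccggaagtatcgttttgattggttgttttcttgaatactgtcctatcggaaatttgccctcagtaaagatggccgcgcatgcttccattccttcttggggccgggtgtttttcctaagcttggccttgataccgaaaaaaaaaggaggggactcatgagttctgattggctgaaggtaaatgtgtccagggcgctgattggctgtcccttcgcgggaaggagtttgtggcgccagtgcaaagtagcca

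In the 25 µM list, 3 of the 44 genes, Orc2, Rfc1 and Rfc2, held a peak inside an intron, where 6.6% of those 13562 genes did, so this count is near the background. The Orc2 peak at chr1:58470394-58470447 was 54 bp wide with a score of 89.88, lay 31005.5 bp from the start, and is masked as repeat over its whole length, although its exact sequence occurs once in the genome. Its bases on the plus strand are shown because Orc2 was the gene that passed the RNA test.
Orc2 intron peak: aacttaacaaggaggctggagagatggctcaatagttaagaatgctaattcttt

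The Rfc2 peak at chr5:134586733-134586785 was 53 bp wide with a score of 96.09, lay 4069 bp from the start and is masked as repeat over 64.2%. The Rfc1 peak at chr5:65274989-65275085 was 97 bp wide with a score of 62.48 and is repeat over 71.1%. Rfc2 and Rfc1 had log2 fold changes of -0.17 (SE 0.14) and -0.58 (SE 0.14). With 1 treated and 1 control library behind each list and no read counts in it, these peaks have no replicate check, and the depth behind them is unknown. Whether a peak bore on the RNA level of its gene was not tested.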

How the data were processed

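RNA-seq of 2 treated and 2 control libraries and FAIRE-seq peak lists of 2 exposure regimens were used. The authors made the gene counts by aligning reads to mm10 with TopHat and counting reads per Entrez gene, and deposited them without normalization; the counting tool, its annotation and its use of strand are not given in the sources used here. For peaks, the authors aligned reads with BWA and ran MACS with its defaults, and the deposited score of a peak comes from 1 treated library against 1 control library.

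Counts were filtered with edgeR's filterByExpr, scaled by TMM and fitted with edgeR's quasi-likelihood test on group alone (two-sided, Benjamini-Hochberg over 13619 genes, threshold 0.05). An exact permutation test of 2 against 2 libraries cannot go below a p of 0.333, so none was used. The edgeR fit was tried on simulated counts drawn with the same spread in both groups. The real groups differed in spread, so the simulation does not show how the fit behaves on these libraries. Values of a single library relative to controls add 0.5 CPM before the logarithm. Depth per library is given with the results. The mean squared difference within a pair was 2.15 times that of counting error for controls and 123 times for treated libraries.

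The 44 genes, the pathway and marker lists and the tests were chosen with earlier results of these data known. Values in every library are given for the gene past the threshold and, per role, for the genes with the smallest p and the highest mean CPM; others, such as Rrm2, Gins1 and Rfc3, were chosen after their values were seen. Roles and lists are described by counts and medians, with no set test. Sequences, starts and exons came from RefSeq, build GRCm38.p6, the assembly of mm10. Alternatives were a replicate block, scalings by library size, by DESeq2 size factors and by upper quartile, no filter, DESeq2, each library left out, other peak distances and scores, and other E2F sequences and windows; the counts below and above controls with 1 treated library were added after seeing the data. Fits ran in R 4.3.3 with edgeR 4.0.16, DESeq2 1.42.0 and limma 3.58.1, and tables and plots in Python 3.11.15 with pandas 2.3.3, numpy 2.4.6, matplotlib 3.10.9 and scipy 1.17.1.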

Additional observations from a re-analysis of the deposited data

How the results depend on the processing

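Besides the 1 call of the main test, the number of the 44 genes called was 8 with a replicate block (all lower, beside 21.8% of all genes). It was 2 with scaling by library size only (Pola1 and Tk1, beside 3.35%) and 2 with no filter on low counts (beside 4.12%). DESeq2 called 5 (beside 15.2%), and 10 were lower at an adjusted p under 0.10 (beside 8.5% of all genes lower). The number was 1 with DESeq2 size factors (beside 4.7%) or upper-quartile scaling (beside 4.6%) in edgeR. Same-numbered treated and control libraries deviated together with a correlation of 0.09 over genes, so the numbers were not taken as pairs. With single libraries left out, the calls ranged from 0 to 37. They were 37 without treated replicate 1 (18 lower, 19 higher, beside 77.6% of all genes), 34 without treated replicate 2 (29 lower, 5 higher, beside 67.2%), 1 without control replicate 1 and 0 without control replicate 2; a lone treated library is there assumed to vary like the controls, whose spread was small. Over all genes tested, fewer genes were also called than in the main test when either control library was left out. The median log2 fold change of the 44 genes ranged from -0.23 without treated replicate 2 to 0.04 without treated replicate 1. Genes below both controls numbered 21 to 33 and genes above both 8 to 23 with 1 treated library. The edgeR adjusted p of Orc2 was 0.478 and 0.457 without control replicate 1 and 2 and 0.0633 with scaling by library size only, and ran from 2.7e-50 to 0.478 over all alternatives. In the other pathway lists the calls were 16 with a replicate block, 9 with DESeq2 and 0 to 108 with single libraries left out. Within 5000 bp of a start, 1 gene (Rfc2) had a peak of the 25 µM list, where 3.87% of 13562 genes did. The 7-letter E2F sequences, without the first T, were in 22 of 37 member windows, beside 9.57% of all windows.

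The fitted values of 17 genes, whose main values lay between -0.25 and 0.28, turned sign under at least 1 alternative. With scaling by library size only, where the median of all genes was -0.11, the log2 fold changes were -0.10 for Mcm3, -0.081 for Rpa3, -0.040 for Pola2, -0.088 for Rrm2, -0.018 for Tyms, -0.11 for Cdc25a and -0.11 for E2f1. With no filter they were -0.0066 for Rpa3, -0.025 for Cdc25a and -0.022 for E2f1. Mcm6 was 0.0035 with DESeq2 size factors, 0.0083 with upper-quartile scaling and 0.0034 with DESeq2, and Rrm2 was -0.049 with a replicate block. With single libraries left out the ranges were -0.29 to 0.13 for Mcm2, -0.32 to 0.33 for Mcm3, -0.22 to 0.50 for Mcm5, -0.054 to 0.033 for Mcm6, -0.70 to 0.11 for Gins2, -0.22 to 0.66 for Orc6, -0.47 to 0.15 for Cdc6, -0.025 to 0.43 for Cdt1, -0.048 to 0.45 for Pcna, -0.19 to 0.0012 for Rpa1, -0.15 to 0.17 for Rpa3, -0.25 to 0.37 for Pola2, -0.62 to 0.53 for Rrm2, -0.19 to 0.37 for Tyms, -0.18 to 0.049 for Cdk2, -0.074 to 0.085 for Cdc25a and -0.055 to 0.074 for E2f1. The cause was not tested. Over 264 values of single genes under the alternatives that kept all libraries, 14 turned sign. In these 264, 14 newly passed the threshold and 1, of Orc2, no longer did. Of the 14 that newly passed, 7 came with a replicate block and 4 with DESeq2, which called 21.8% and 15.2% of all genes. With single libraries left out, 21 of 176 values turned sign.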

Other observations

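Across genes, the Spearman correlation between gene length and log2 fold change was -0.31 over the 44 genes and -0.19 over 13568 genes tested with a known length. These genes come from the same 4 libraries and are not independent replicates, so the values are a description. Pola1 and Rfc1 span more of the genome than the median of their roles, and Pcna and Fen1 less. Other genes went against the correlation. Tk1, with the lowest log2 fold change of the list at -1.16, spans 10569 bp, below the list median of 14581.5 bp. Orc1, at 0.41, spans 40326 bp, above that median.

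Tyms-ps, a processed copy of Tyms, had 250 and 306 counts in treated and 300 and 384 counts in control libraries. The division of reads between Tyms and this copy was not tested.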
